A study of Rattus norvegicus with 6 samples.

Results

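The 10 genes described here, Atf4, Atf5, Ddit3, Ppp1r15a, Ppp1r15b, Eif2ak3, Trib3, Asns, Sesn2 and Chac1, belong to the integrated stress response and were chosen by name for their known place in it. Each was found at 1 locus of the 33022 in the deposited table, and all 10 passed the filter on low values, a mean of at least 1 FPKM, together with 10201 loci in all. FPKM stands for fragments per kilobase of transcript, scaled to the number of mapped fragments, a level that takes transcript length into account and so can be compared between genes.

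The study asked how a short period on an obesogenic diet changes mRNA abundance and the loading of mRNAs with ribosomes in liver. Male obesity-prone Sprague Dawley rats ate either a control diet (CD) or a Western diet (WD), rich in fat and sucrose, for 2 weeks, and all were fasted overnight and refed before the liver was taken. For each diet, 3 libraries were made, from total RNA, from the light part of a sucrose gradient (mRNAs carrying 3 or fewer ribosomes) and from the heavy part (4 or more ribosomes), and each library held the pooled RNA of 3 rats. With 1 library for each of the 6 combinations no value has a replicate, so no difference between diets could be tested against the variation between rats. These are whole livers, in which fewer cells of a type and less RNA per cell cannot be told apart.

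The integrated stress response is a control circuit of protein synthesis. Kinases that sense unfolded proteins, scarce amino acids, viral RNA or lack of heme phosphorylate the initiation factor eIF2, which slows translation of most mRNAs, while mRNAs with short reading frames upstream of their coding sequence, such as Atf4, are then translated better. ATF4 in turn induces genes for amino acid supply and redox balance as well as the phosphatase subunit that ends the response, and in liver the circuit is known for its part in the response to amino acid restriction and to endoplasmic reticulum stress.

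The 6 libraries differed in depth, and the WD light fraction stood apart. Its depth relative to the CD heavy fraction was 2.34, against 1.02 to 1.57 for the other libraries, and its loci with a symbol summed to 867734 FPKM, against 617369 to 700724 in the other 5. Hepatocyte markers bore out the tissue label: 7 of 7 were above 0 in each library, with sums of 42858.8 to 129369 FPKM. Summed markers of Kupffer cells and macrophages (7 of 7 found) ranged from 74.9 to 176 FPKM, those of sinusoidal endothelium (4 of 5) from 48.7 to 70.9 FPKM and those of stellate cells (4 of 5) from 27 to 56.6 FPKM. Blood cell markers (5 of 5) summed to 505 FPKM in the WD light fraction and to 99.4 FPKM in the CD light fraction, while in the other libraries the sum was between 18 and 55.4 FPKM and Hba1, Hba2 and Hbb were at 0 in at least 1 library. The part of blood RNA in the values of the WD light fraction was not tested, and the density of members above 0 in the fractions is also given below as heavy over total RNA, without the light libraries.

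Whole numbers of sequenced fragments behind the FPKM values could be inferred for 9 of the 10 genes, and from them a 95% interval was computed for each ratio of libraries. These intervals cover counting error only, since PCR copies are not independent molecules and the pools have no replicate, and they compare libraries rather than diets. They were not adjusted for the number of ratios given. The numbers are the smallest that explain the FPKM values, and a multiple of them would give the same FPKM with narrower intervals. For Ppp1r15a and Asns, which have 2 start sites, the bounds of Cufflinks did not match the inferred numbers, so their intervals are less certain.

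ATF4 binds DNA with C/EBP partners at an element whose core reads TGATGNAA. The windows from 250 bases before to 50 bases after the RefSeq gene start (assembly GRCr8) were searched on both strands for this core, which reads TTNCATCA on the other strand. It was present in 3 of the 10 genes and in 1332 of 33469 promoters (3.98%). These matches are shown, because they mark the members whose promoters hold the letters of the element within this window, 5′ to 3′ along the strand of the gene, with the match in capitals. They lie at chr13:47129806-47129845 on the plus strand for Ppp1r15b, chr3:161275531-161275570 on the minus strand for Trib3 and chr3:126795948-126795987 on the plus strand for Chac1.
Ppp1r15b: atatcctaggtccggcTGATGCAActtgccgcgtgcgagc
Trib3: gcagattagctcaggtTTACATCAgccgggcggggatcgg
Chac1: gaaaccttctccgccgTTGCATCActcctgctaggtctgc
The match began at position -178 from the gene start in Ppp1r15b, -21 in Trib3 and -167 in Chac1. Trib3 and Chac1 carried it in the reverse reading. A match of letters is not a site of binding, and its absence from the other 7 windows says only that the letters are not there.

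The 10 mRNAs covered a wide range of levels. In CD total RNA they ran from Atf5 at 429 FPKM to Chac1 at 1.28 FPKM, a ratio of 336, with Ppp1r15b and Atf4 next after Atf5. In WD total RNA the highest was again Atf5, at 385 FPKM, and the lowest was Ppp1r15a, at 2.00 FPKM. Trib3 ranked after Atf5, Ppp1r15b and Atf4 in CD total RNA and in both heavy libraries, but below Sesn2, Eif2ak3, Asns and Ddit3 as well in WD total RNA. In both total RNA libraries the bounds that Cufflinks gave for a value overlapped for 9 of 9 pairs of neighbours in this order, so no single step of it is separated by them. The plot of levels by library shows the members with those bounds.

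**Figure D1:**
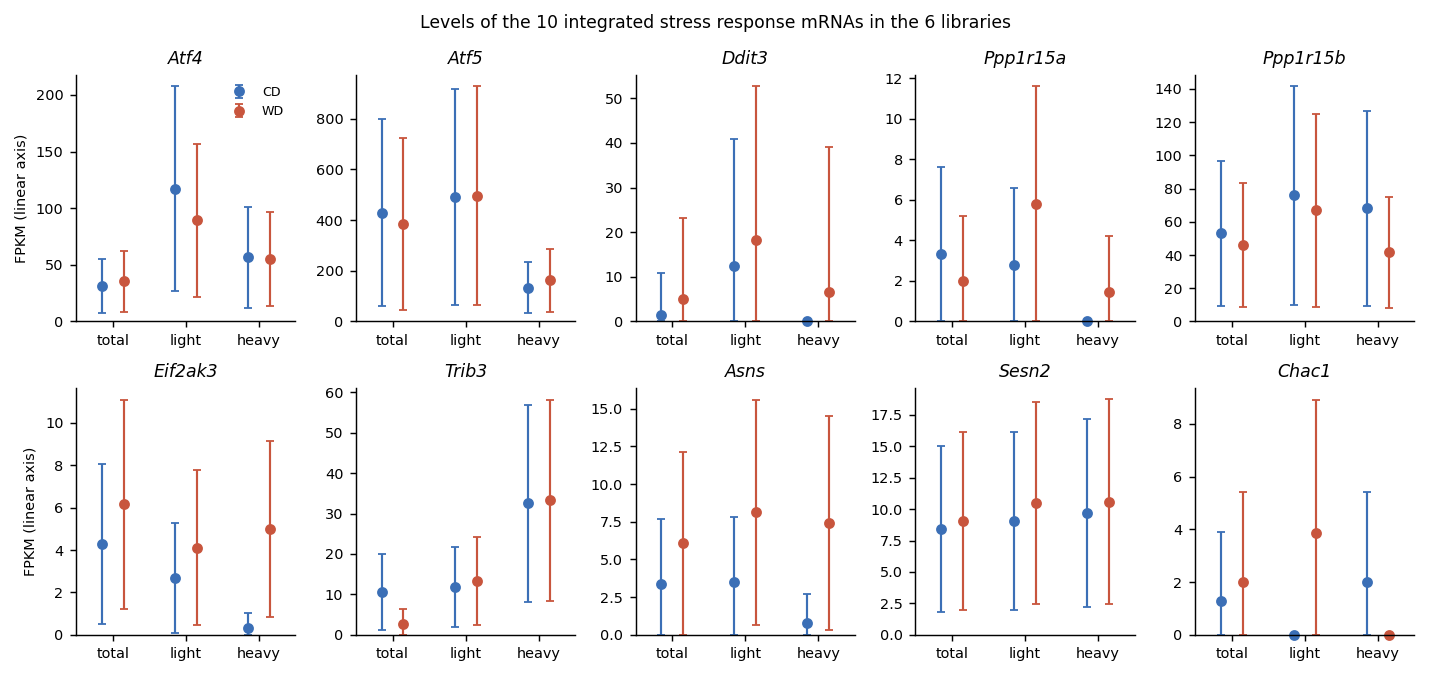
Levels of the 10 mRNAs in FPKM (linear axes, 1 panel per gene with its own scale) in total RNA and in the light and heavy fractions, CD in blue and WD in red. Each point is 1 pooled library and each bar the lower and upper bound given by Cufflinks. The heavy fractions hold the highest of the 6 values of Trib3 (32.5 and 33.3 FPKM) and the lowest of those of Atf5 (134 and 162 FPKM).

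Atf4 encodes the transcription factor at the centre of the response (chr7:121480723-121482781, Rnor_6.0, as are the other loci below). Its level was 31.1 FPKM in CD and 35.5 FPKM in WD total RNA, 117 and 89.5 FPKM in the light fractions, and 56.8 and 55.5 FPKM in the heavy fractions. Both light libraries were thus the highest and the total RNA libraries the lowest. In total RNA the WD to CD ratio was 1.14, with a 95% interval of 0.739 to 1.77 from 47 and 43 fragments. In the light fraction the ratio was 0.762 (0.599 to 0.974), on 184 and 111 fragments, and in the heavy fraction 0.976 (0.646 to 1.47). Light fraction Atf4 was therefore lower in the WD library by more than counting error, while the total and heavy libraries did not differ beyond it. The Cufflinks bounds of the light values overlapped, at 26.9 to 208 FPKM in CD and 21.6 to 157 FPKM in WD.

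Atf5, a close relative of Atf4 whose mRNA also carries upstream reading frames, lies at chr1:100808241-100810522 and is known to be abundant in liver. It was the highest of the 10 in each library. Total RNA held 429 FPKM in CD and 385 FPKM in WD, the light fractions 491 and 497 FPKM, and the heavy fractions 134 and 162 FPKM. The heavy libraries were the lowest under both diets. The WD to CD ratios were 0.897 (0.775 to 1.04) in total RNA, 1.01 (0.885 to 1.16) in the light and 1.21 (0.89 to 1.64) in the heavy fraction. Each of these intervals includes 1, on fragment numbers between 81 and 700.

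Ddit3 encodes CHOP, a transcription factor linked to cell death under prolonged stress, at chr7:70580198-70602310. Its levels were 1.43 FPKM in CD and 5.05 FPKM in WD total RNA, 12.5 and 18.3 FPKM in the light fractions, and 0 and 6.58 FPKM in the heavy fractions. WD libraries were the higher ones in each kind of RNA. The total RNA ratio was 3.54 and the light fraction ratio 1.46, without an interval because no fragment number could be inferred. The locus overlaps Mars, which encodes methionyl-tRNA synthetase, and reads of overlapping genes may have been divided between them. The Cufflinks bounds were wide, from 0 to 23.1 FPKM in WD total RNA, and these values are uncertain.

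Ppp1r15a (GADD34) is the stress-induced subunit that directs protein phosphatase 1 to eIF2, and its locus is chr1:101511901-101514974. Levels were low at 3.35 FPKM in CD and 2.00 FPKM in WD total RNA, 2.80 and 5.80 FPKM in the light fractions, and 0 and 1.47 FPKM in the heavy fractions. These rest on 7 and 4, 4 and 18, and 0 and 2 fragments. The total RNA ratio was 0.597 (0.128 to 2.35) and the light fraction ratio 2.07 (0.682 to 8.41), so no difference between the diets was detectable at this depth. The heavy libraries were both under 3 fragments and allow no fold.

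Ppp1r15b (CReP) is the constitutive counterpart of that subunit, at chr13:49933155-49940961. It was measured at 53.0 FPKM in CD and 46 FPKM in WD total RNA, 76.0 and 66.9 FPKM in the light fractions, and 68.1 and 41.7 FPKM in the heavy fractions. The WD library was the lower one in each pair, and by most in the heavy fraction. There the ratio was 0.612 (0.499 to 0.748) on 161 and 257 fragments. In total RNA it was 0.869 (0.735 to 1.03) and in the light fraction 0.88 (0.765 to 1.01), both with intervals that include 1. Ppp1r15b was the better sampled of the subunits, with 161 to 589 fragments per library.

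Eif2ak3 encodes PERK, the eIF2 kinase of the endoplasmic reticulum, at chr4:98648545-98709694. Its level was 4.28 FPKM in CD and 6.18 FPKM in WD total RNA, 2.68 and 4.11 FPKM in the light fractions, and 0.320 and 5.00 FPKM in the heavy fractions. The CD heavy library was the low one of the 6. In total RNA and in the light fraction the ratios were 1.44 (0.795 to 2.66) and 1.53 (0.71 to 3.67). The heavy fraction ratio was 15.6, but it compares 16 fragments with 1 and its interval runs from 2.43 to 655, so the interval lies above 1 but spans a wide range of sizes.

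Trib3, a pseudokinase that ATF4 and CHOP induce and that restrains them and the kinase Akt, lies at chr3:147813473-147819571. Total RNA held 10.6 FPKM in CD and 2.64 FPKM in WD, the light fractions 11.8 and 13.2 FPKM, and the heavy fractions 32.5 and 33.3 FPKM. The WD total RNA library was the low one, and the fractions of both diets were close to each other. The total RNA ratio was 0.249 (0.0733 to 0.678), on 5 and 21 fragments. This was the single interval below 1 for total RNA among the 9 genes. In the light and heavy fractions the ratios were 1.12 (0.612 to 2.15) and 1.02 (0.652 to 1.61). The lower abundance thus rests on 1 library with 5 fragments and had no counterpart in the fractions beyond counting error.

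Asns encodes asparagine synthetase, a textbook target of ATF4 under amino acid shortage, at chr4:33743364-33761163. Levels were 3.38 FPKM in CD and 6.06 FPKM in WD total RNA, 3.53 and 8.12 FPKM in the light fractions, and 0.758 and 7.41 FPKM in the heavy fractions. All 3 WD libraries lay above their CD partners. Ratios were 1.79 (0.651 to 5.37) in total RNA and 2.30 (0.865 to 7.69) in the light fraction, where the intervals include 1. In the heavy fraction the ratio was 9.76 (1.39 to 424), from 10 fragments against 1, numbers that the bounds did not match.

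Sesn2, whose product restrains mTORC1 when leucine is scarce, lies at chr5:150684133-150704117 and was the most even of the 10. It was measured at 8.40 FPKM in CD and 9.04 FPKM in WD total RNA, 9.04 and 10.5 FPKM in the light fractions, and 9.71 and 10.6 FPKM in the heavy fractions. The 6 values lie close together. The WD to CD ratios were 1.08 (0.652 to 1.78) in total RNA, 1.16 (0.719 to 1.92) in the light and 1.09 (0.615 to 1.96) in the heavy fraction, and differences within these intervals could not have been detected.

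Chac1, which encodes a glutathione-degrading enzyme induced by ATF4, lies at chr3:111160205-111163425 and was near the limit of detection. It was listed at 1.28 FPKM in CD and 2.01 FPKM in WD total RNA, 0 and 3.87 FPKM in the light fractions, and 2.01 and 0 FPKM in the heavy fractions. These values come from 2, 3, 0, 9, 2 and 0 fragments. The total RNA ratio was 1.57 (0.18 to 18.8). No difference between diets was detectable for this gene in any of the 3 kinds of RNA.

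**Figure D2:**
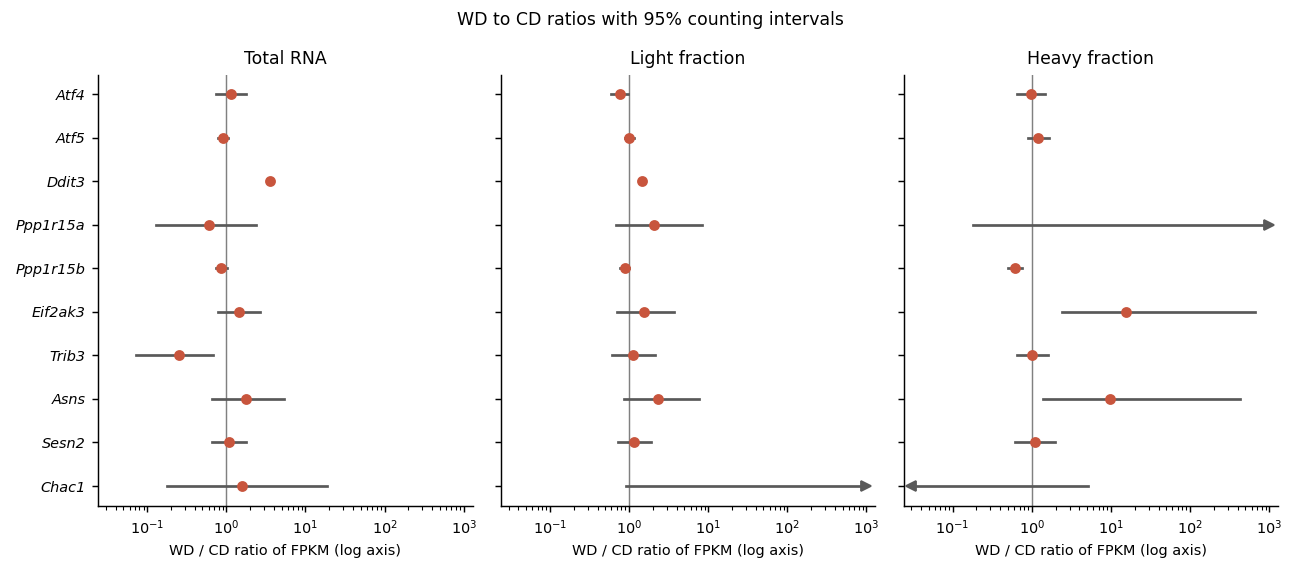
WD to CD ratio of FPKM (log axis) of the 10 mRNAs in total RNA, the light fraction and the heavy fraction. Points are ratios, bars are 95% counting intervals, arrows mark intervals open to infinity or 0, and Ddit3 has no interval. Intervals clear of 1 belong to Trib3 in total RNA (0.249), Atf4 in the light fraction (0.762), and Ppp1r15b, Eif2ak3 and Asns in the heavy fraction (0.612, 15.6 and 9.76).

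Set against all loci compared, the abundance of the 10 mRNAs showed no common shift with diet. WD to CD ratios of at least 1.5 and at most 0.75 served to count members. The study applied these limits to ribosome density as CD over WD, and since they are not symmetric, counts in that direction are given as well. In total RNA 3 members had ratios of 1.5 or more, Ddit3, Asns and Chac1, against 17.7% of all loci, and 2 were at or below 0.75, Ppp1r15a and Trib3, against 22.7% of all loci. With the limits on CD over WD, 2 members were at least 1.5 (17% of all loci) and 4 at most 0.75 (23.9%), Eif2ak3 being added. The median log2 change was 0.15 for the members and 0.02 for all loci. In the light fraction 4 members passed 1.5 (25.9% of all loci) and 0 fell to 0.75 or less (26.8% of all loci). In the heavy fraction these numbers were 4 (21.7%) and 2 (25.8%). Median log2 changes were 0.37 in the light and 0.20 in the heavy fraction, where all loci had 0.02 and -0.02. Counting intervals of 9 members lay above 1 for 0 and below 1 for 1 in total RNA, where 3.45% and 3.56% of all loci with intervals did so. In the light fraction the numbers were 0 (8.16% of all loci) and 1 (9.16%), and in the heavy fraction 2 (3.29%) and 1 (3.87%). With all libraries brought to an equal FPKM sum, the light fraction intervals of 3 of 9 members lay below 1, those of Atf4, Atf5 (0.693 to 0.908) and Ppp1r15b (0.599 to 0.791), as did 19.1% of all loci.

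Dividing the heavy by the light fraction measures how much of an mRNA's presence lay on larger polysomes, relative to other mRNAs in the same library. FPKM are scaled within a library, so a ratio of 1 does not mean equal amounts of RNA in both fractions. In CD 6 members had a ratio of at most 0.75 (36.6% of all loci) and 2 of at least 1.5 (32.9% of all loci). In WD the numbers were 6 (38.5%) and 1 (31.4%). The median log2 ratio of the members was -1.46 in CD and -0.69 in WD, where all loci had 0.01 and 0.00. Ddit3, Ppp1r15a and Chac1 had a fraction library at 0, and their fitted ratios depend on the 0.1 FPKM added before taking logs. For the 7 members above 0 in all 4 fraction libraries the medians were -1.05 in CD and -0.13 in WD. The 8588 loci of that kind had 0.10 and 0.09. These 7 include Eif2ak3 (log2 ratio -2.73 in CD and 0.28 in WD) and Asns (-2.08 and -0.13), each with 1 CD heavy fragment. The 4 members that averaged 10 FPKM or more had medians of -0.60 in CD and -0.69 in WD. The difference between the diets in the members' medians thus depends on thinly sampled members.

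Members known for upstream reading frames lay on the light side. These frames were named from general knowledge and were not checked in rat transcript sequences. For Atf4, Atf5, Ddit3, Ppp1r15a and Ppp1r15b the heavy fraction was lower than the light one under both diets, 5 of 5 in each, beside 46.2% of all loci in CD and 50% in WD, with a median log2 ratio of -1.87 in CD and -1.46 in WD. In CD the heavy library was at 0 for Ddit3 and Ppp1r15a. The other 5 members, Eif2ak3, Trib3, Asns, Sesn2 and Chac1, had medians of 0.10 and 0.02. Atf5 was the clearest case at 0.274 (0.212 to 0.35) in CD and 0.326 (0.261 to 0.402) in WD. Atf4 followed at 0.484 (0.339 to 0.681) and 0.62 (0.444 to 0.851). Against total RNA the order of these transcription factors parted: the heavy fraction stood at 0.313 (0.243 to 0.398) and 0.42 (0.333 to 0.526) of the total level for Atf5, and at 1.83 (1.19 to 2.81) and 1.56 (1.03 to 2.38) of it for Atf4, so that Atf4 was higher in both fractions than in total RNA. Counting intervals lay below 1 for 3 of 9 members in each diet, Atf4 and Atf5 in both, Eif2ak3 in CD and Ppp1r15b in WD, beside 13.5% of all loci with intervals in CD and 17.3% in WD. The ratio of Ppp1r15b was 0.896 (0.756 to 1.06) in CD and 0.623 (0.52 to 0.743) in WD. Its heavy fraction stood at 1.29 (1.09 to 1.52) of the total RNA level in CD and at 0.905 (0.739 to 1.11) in WD. Ppp1r15a, with 0 and 4 fragments in CD, allowed a ratio of up to 1.63, and in WD it was 0.253 (0.0285 to 1.06), so its place on the light side lies within counting error. The 6 further upstream-frame mRNAs of the wider list described below had median log2 ratios of -0.22 and -0.41, with 4 of 6 below 0 in each diet.

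Among the 7 members above 0 in all fractions, Trib3 was the one most shifted to the heavy fraction. Its heavy to light ratio was 2.75 (1.51 to 5.25) in CD and 2.51 (1.59 to 3.98) in WD, and no other member had an interval above 1 in either diet, which 15.4% of all loci with intervals had in CD and 19% in WD. Chac1 had a higher fitted value in CD, from 2 heavy fragments and 0 light ones. Sesn2 stood near 1 in both, at 1.07 (0.592 to 1.95) and 1.01 (0.625 to 1.61). Eif2ak3 and Asns were low in CD, at 0.119 (0.00272 to 0.861) and 0.215 (0.00454 to 1.92), and near 1 in WD, at 1.22 (0.619 to 2.3) and 0.912 (0.391 to 1.97). The CD values of both rest on 1 heavy fraction fragment.

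**Figure D3:**
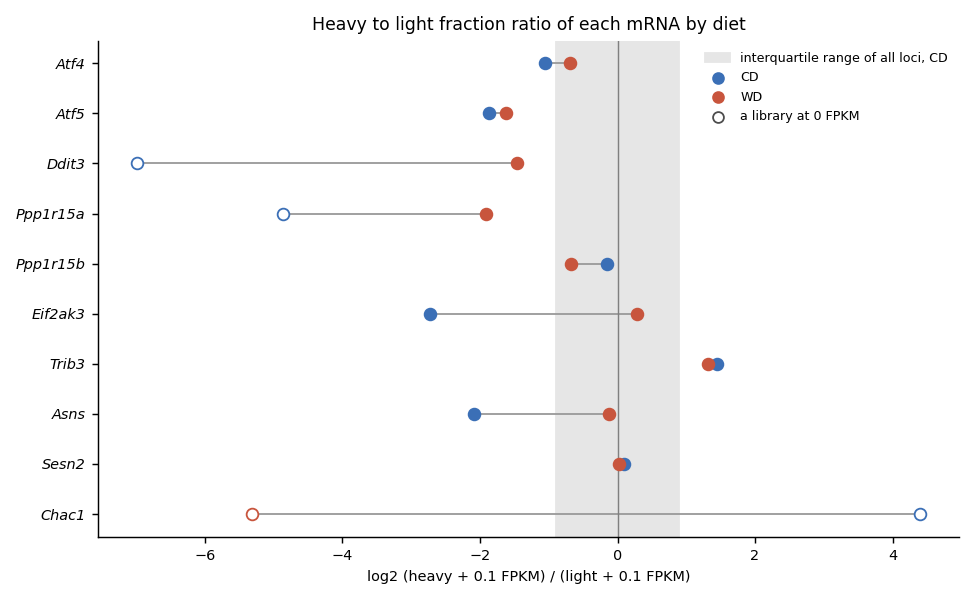
Heavy to light ratio of each mRNA as log2 of FPKM + 0.1, CD in blue and WD in red, joined by a line. Open points have a library at 0 FPKM and depend on the added value, and the grey band is the interquartile range of all loci in CD, -0.90 to 0.90. Atf4, Atf5, Ddit3, Ppp1r15a and Ppp1r15b lie left of 0 in both diets and Trib3 lies right of it in both.

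Ribosome density was compared between diets as the heavy to light ratio in WD over that in CD. Of the 10 members, 4 reached a ratio of 1.5, Ddit3, Ppp1r15a, Eif2ak3 and Asns (27.7% of all loci), and 2 were at or below 0.75, Ppp1r15b and Chac1 (36.1% of all loci). With the limits on CD over WD, 1 member was at least 1.5, Chac1 (30.9% of all loci), and 4 were at most 0.75 (32.9%), so that Ppp1r15b was not counted. Median log2 change was 0.30 for the members, 0.25 for the 7 without a 0 in the fractions, and -0.02 for all loci. Of these 7, 4 were above 0 and 3 below. The largest changes among them, of Eif2ak3 (3.00) and Asns (1.95), rest on 1 CD heavy fragment each. The members' median moved with the processing. It was 0.63 (all loci 0.28) with libraries brought to an equal sum and 1.21 (all loci 0.00) with the heavy fraction over total RNA. In the 4 members that averaged 10 FPKM or more it was 0.06. Counting intervals lay above 1 for 1 of 9 members and below 1 for 1, beside 5.35% and 4.34% of all loci with intervals. Eif2ak3 had a density ratio of 10.2 (1.19 to 474), with 1 fragment in the CD heavy library, and Ppp1r15b one of 0.695 (0.543 to 0.891).

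Both differences remained when total RNA took the place of the light libraries. The heavy libraries were the same, with 16 and 1 fragments for Eif2ak3 and 161 and 257 for Ppp1r15b in WD and CD. The result is therefore not independent of the one above. Taken over total RNA instead, the heavy fraction gave 10.8 (1.42 to 475) for Eif2ak3 and 0.704 (0.54 to 0.917) for Ppp1r15b. When all libraries were brought to an equal FPKM sum, which raises the median density change of all loci from -0.02 to 0.28 on the log2 scale, the interval of Eif2ak3 stayed above 1 (1.49 to 595) and that of Ppp1r15b included 1 (0.682 to 1.12). Under that scaling the light fraction of the WD is scaled down the most. The log2 change of Ppp1r15b was then -0.19, beside 0.28 for all loci. Scaling whole libraries moves all loci nearly alike, so its place relative to other mRNAs could hardly change and is no further evidence.

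For the transcription factors the density ratios were 1.28 (0.79 to 2.08) for Atf4 and 1.19 (0.853 to 1.67) for Atf5, which include 1. After rescaling, the interval was 0.992 to 2.61 for Atf4 and 1.07 to 2.10 for Atf5. Under that scaling the density intervals of 2 of 9 members lay above 1, as did 10.3% of all loci with intervals. Over total RNA the heavy fraction gave 0.854 (0.464 to 1.57) for Atf4, on the other side of 1, and 1.34 (0.958 to 1.89) for Atf5. Neither a change nor its absence can be read from these. Density ratios of 0.913 (0.412 to 1.99) for Trib3 and 0.943 (0.437 to 2.04) for Sesn2 turned to the other side of 1 under rescaling. Their log2 changes were then 0.20 and 0.24, below the median of 0.28 of all loci under that scaling. Over total RNA Sesn2 stood at 1.02 (0.467 to 2.21). Asns had a ratio of 4.25 with an interval of 0.39 to 221, and of 5.45 (0.515 to 270) over total RNA. The fitted log2 density changes of Ddit3 (5.52), Ppp1r15a (2.95) and Chac1 (-9.71) are set by the value added to a library at 0 and are no measure of size.

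Trib3 parted from its total RNA level. The heavy fraction held 3.07 times (1.77 to 5.46) the total RNA level in CD and 12.6 times (5.01 to 40.8) in WD, and the ratio of these was 4.11 (1.33 to 15.1). Taken the same way, the light fraction gave 4.5 (1.31 to 17.5). Both ratios share the WD total RNA library with its 5 fragments, and the heavy to light ratio, which leaves total RNA out, did not move with diet beyond counting error.

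**Figure D4:**
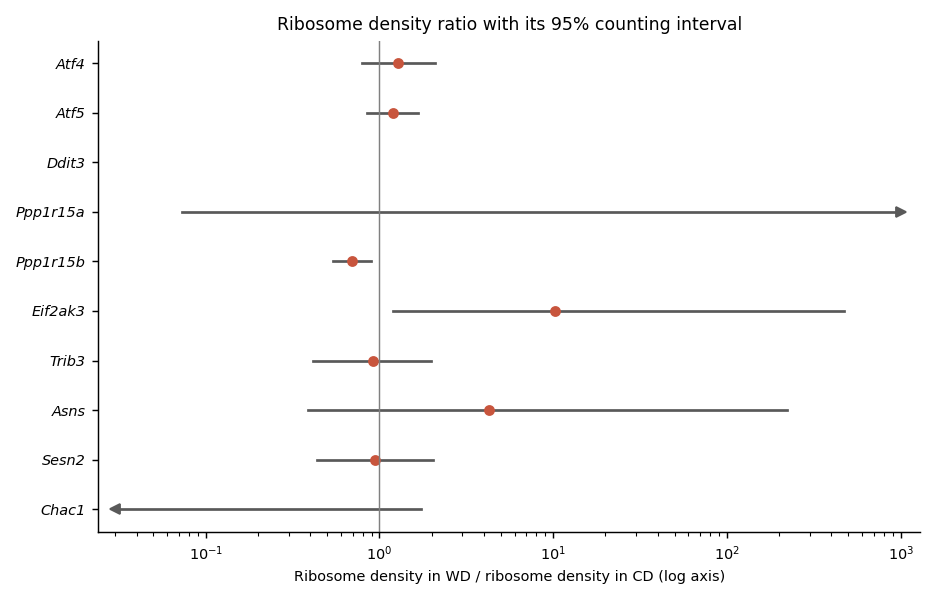
Ribosome density in WD over that in CD (log axis) for the 10 mRNAs. Points are ratios, bars are 95% counting intervals, arrows mark open intervals, and Ddit3 has neither. The bar of Ppp1r15b (0.543 to 0.891) lies below 1, that of Eif2ak3 (1.19 to 474) above 1, and the others cross it.

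A wider list of 45 genes was set beside the members. It held genes of the same pathway and 6 other mRNAs listed for their upstream reading frames. Of the 45, 37 could be compared and 8 were too low, 3 of these at 0 in all 6 libraries. In total RNA 8 of the 37 reached a WD to CD ratio of 1.5 (17.7% of all loci) and 6 lay at 0.75 or less (22.7%), with a median log2 change of 0.11. For ribosome density these numbers were 7 (27.7%) and 15 (36.1%), and the median was -0.12. Fragment numbers gave intervals for 28 of them. Of all loci with intervals, 3.45% lay above 1 and 3.56% below 1 for abundance, and 5.35% and 4.34% for density. The abundance interval lay above 1 for Phgdh (1.26 to 12.3) and Mthfd2 (1.12 to 371), enzymes of serine synthesis and mitochondrial folate metabolism, and for Slc3a2 (1.12 to 1.75), a chain of amino acid transporters, and Herpud1 (1.08 to 1.59), a component of protein degradation at the endoplasmic reticulum, and it lay below 1 for 0 genes. The density interval lay above 1 for Shmt2 (1.05 to 1.87), the mitochondrial serine hydroxymethyltransferase, and Fgf21 (1.74 to 8). It lay below 1 for Ibtk (0.286 to 0.843) and Amd1 (0.0581 to 0.653), an enzyme of polyamine synthesis. Ibtk and Amd1 were listed for their upstream reading frames. Those named for their intervals were chosen after their values were seen.

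By group, the 11 eIF2 kinases and translation factors had a median log2 abundance change of 0.10 and a density change of -0.40. Of these, 1 was at least 1.5-fold higher and 3 at most 0.75 in total RNA, with 1 and 5 for density. Over all loci the shares past these limits were 17.7% and 22.7% in total RNA and 27.7% and 36.1% for density. The same shares apply to the groups that follow. Targets for amino acid synthesis and transport, 9 of 13 compared, had medians of 0.48 for both quantities, with 4 and 1 genes past the limits in total RNA and 3 and 1 in density. These targets were on the heavy side under both diets, with a median log2 heavy to light ratio of 1.52 in CD and 2.01 in WD. Of the 9, 6 in CD and 7 in WD had a ratio of at least 1.5, beside 32.9% and 31.4% of all loci. Asns, a member of the same kind, had ratios of 0.215 (0.00454 to 1.92) in CD and 0.912 (0.391 to 1.97) in WD. Both intervals include 1.5, but their upper bounds lie below the median ratios of these targets. Of the 9 targets, 2 in each diet had a ratio of at most 0.75. Asns has 1 CD heavy fragment and numbers that the bounds did not match, and whether it differs from these targets was not tested. Stress targets and partners, 11 of 15, had medians of -0.04 in total RNA and -0.70 in density, with 3 and 2 and with 2 and 7 past the limits. The 6 other upstream-frame mRNAs had medians of 0.10 and -0.04, with 0 past either limit in total RNA and 1 and 2 in density.

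Most of the extremes of the wider list were thinly sampled. Jdp2, a repressor of AP-1 and ATF-type sites, had the highest abundance change, but 0 and 1 total RNA fragments allow no fold. Mthfd2 was next, with a log2 change of 2.82 on 1 and 8 fragments. The lowest changes were those of Psph, the last enzyme of serine synthesis, at -1.82 on 4 and 1 fragments, and Eif2s3, a subunit of eIF2, at -1.18 with no fragment number. For ribosome density, Fgf21, a hormone of the fasting liver, had a log2 change of 1.89, and its level was 105 and 27.6 FPKM in the CD and WD light fractions beside 129 and 126 FPKM in the heavy ones. Jdp2 ranked above it, from a heavy library at 0. The lowest were Gdf15, a stress-induced hormone, with 0 CD light fragments and 1 WD light fragment, and Eif2b2, a subunit of the exchange factor of eIF2, with a log2 change of -2.59 and an interval of the ratio of 0.013 to 1.31.

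**Figure D5:**
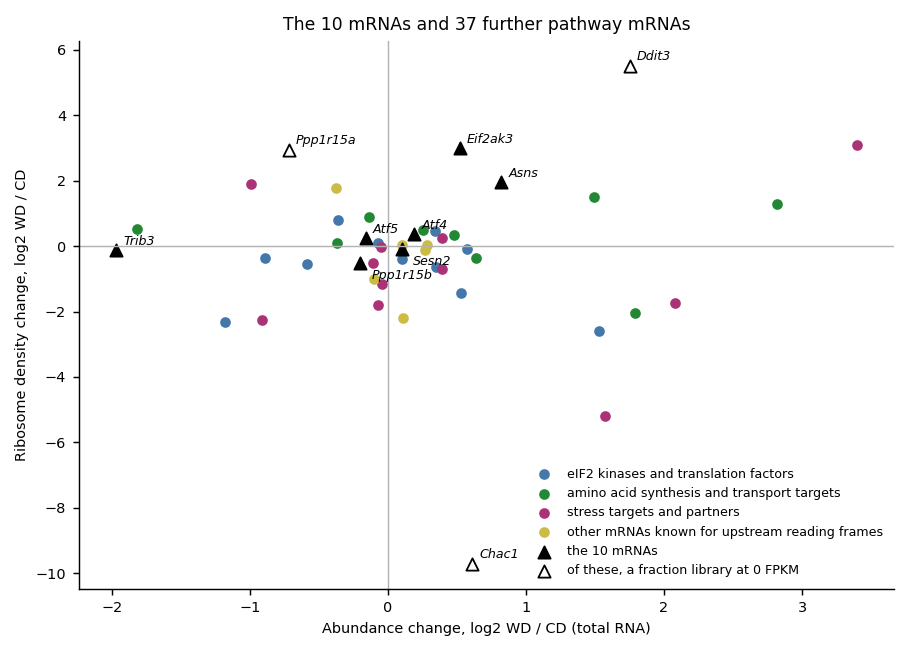
Log2 WD to CD change of abundance (total RNA) against that of ribosome density for the 10 mRNAs (triangles, open where a fraction library was at 0 FPKM) and 37 mRNAs of the wider list (circles, coloured by group). Eif2ak3 (0.52, 3.00) and Asns (0.82, 1.95) lie to the upper right, Trib3 lies far left (-1.97, -0.13), and Ppp1r15b (-0.20, -0.52) lies below 0.

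Over the 6 libraries, the levels most like those of Atf4 in a ranking of 4065 loci that averaged 10 FPKM or more were those of LOC500948 (Pearson r = 0.985), the merged locus of Dnhd1 and Timm10b (0.982), Ppap2c (0.97), Atox1 (0.969) and the merged locus of Rdm1 and U2 (0.968). Like Atf4, each was highest in the CD light library and next highest in the WD light library. LOC500948, for one, measured 40.8 and 32.5 FPKM in the light fractions and 11.1 to 17.5 FPKM in the other libraries. The points share libraries and their depth, and the correlation is given as a description.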

How the data were processed

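RNA pooled from 3 rats was sequenced as total RNA and as light and heavy gradient fractions for each diet. After removal of ribosomal RNA, the authors used TopHat for alignment to Rnor_6.0 and Cufflinks and Cuffnorm for quantification, and the deposited values are FPKM with lower and upper bounds. The annotation and strand setting were not given in the sources used here. The authors' FPKM are normalized between libraries, and total read numbers were not used.

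Loci that carried a symbol, had an estimate marked as successful and averaged 1 FPKM or more were compared as log2(FPKM + 0.1), where a fold change is understated for low genes. Fragment numbers were inferred for 9070 of 13283 genes (68.3%, and 0.241% after values were jittered by 1%) as whole multiples of 1 step per gene and 1 factor per library. Intervals are exact binomial (Clopper-Pearson), or conditional for density. The inference of fragment numbers and the intervals were tested on simulated data. The simulated counts followed the model that the inference assumes. The simulation therefore does not cover PCR copies, genes with more than 1 start site or reads divided between genes. With 1 library per group no test was run.

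The members and lists were chosen with earlier results of these data known. Named genes were the members, the 2 highest and 2 lowest changes of the wider list, and the 5 loci most like Atf4. Genes of the wider list whose intervals lay clear of 1 were named as well, outside this rule. Alternatives were other filters, pseudocounts and scalings, heavy over total RNA, leaving out members at 0 or Ddit3, and limits on CD over WD. Promoters are from RefSeq (GRCr8), and all 10 members matched. Scripts ran in Python 3.11.15 with scipy 1.17.1 for intervals, pandas 2.3.3 for tables, matplotlib 3.10.9 for plots and numpy 2.4.6.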

Additional observations from a re-analysis of the deposited data

Results flagged for a closer look

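The log2 change of ribosome density was -0.52 for Ppp1r15b and 3.00 for Eif2ak3, and each is listed here because the counting interval of its density ratio between the diets lay clear of 1. For Eif2ak3 the heavy fraction was also below the light one in CD and above it in WD, on 1 and 16 heavy fraction fragments. Chac1 is listed, with a fitted log2 change of -9.71, because its heavy fraction was above its light fraction in CD and below it in WD, a difference that was not tested and that comes from libraries at 0. The highest fragment number of Chac1 in the 4 fraction libraries was 9.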

How the results depend on the processing

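No paired analysis was possible because each combination of diet and RNA has 1 library, and for the same reason no replicate could be left out. Of 110 recomputed summary values 88 stayed within the limits set for a change, 21 moved and 1 reversed, and of 158 values of single members 152 stayed and 6 moved. A member's value counted as staying within that gene's own counting interval, or for Ddit3 within 0.1. Several of these intervals are open to 0 or infinity, so the count says little about stability. Counted as staying were Chac1 density at -16.26 (pseudocount 0.01 FPKM) and -3.87 (1 FPKM), and Atf4 density at -0.23 over total RNA. A mean of at least 10 FPKM left 4 members, with medians of -0.18 (abundance), 0.06 (density), -0.08 (light), 0.00 (heavy) and -0.60 (heavy to light in CD), and with 0 and 1 members past the limits for abundance and again 0 and 1 for density. With all libraries brought to an equal FPKM sum, the medians were 0.63 (density), 0.02 (light) and -0.38 (heavy to light in WD), 1 member had a density ratio of at most 0.75, and the wider list had a density median of 0.21, against -0.37 with a mean of at least 0.1 FPKM. The heavy fraction over total RNA gave a density median of 1.21 and heavy medians of -0.74 in CD and 0.04 in WD, the last reversed, and 2.00 for the density of Trib3. A pseudocount of 1 FPKM gave -1.20 for heavy to light in CD. Leaving out members at 0 in a fraction, an alternative chosen after seeing the data, gave -1.05 and -0.13. Limits on CD over WD, also chosen after seeing the data, counted 1 member lower in WD for density. For Ddit3, abundance was 1.32 and density 2.41 with a pseudocount of 1 FPKM, and density was 8.82 with 0.01 FPKM, 5.88 rescaled and 4.31 over total RNA. The cause was not tested where the alternative does not itself remove members or libraries. Of the members with fragment numbers, depth limits Chac1, Ppp1r15a, Asns and Eif2ak3 most, with 0 or 1 fragments in at least 1 heavy library. Ddit3, which has no fragment numbers, was at 0 FPKM in the CD heavy library.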
